A study of Mus musculus with 23 samples.

Results

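Small heat shock proteins are chaperones that bind unfolding proteins and hold them until other chaperones can refold them or hand them to degradation. This account follows 8 genes of that system across the making of mouse skeletal muscle: the small heat shock proteins Hspb1, Hspb2, Hspb3, Hspb6, Hspb7, Hspb8 and Cryab, and Bag3, the co-chaperone that works with Hspb8. They were taken as the array features whose gene name is one of these symbols, which found all 8 members among 36095 genes on the array. Cryab had 2 probes and each other member had 1.

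All small heat shock proteins share a central alpha-crystallin domain and assemble into dimers and larger oligomers, and none of them needs ATP to bind a client. In striated muscle they sit on the cytoskeleton and at the Z disc, where desmin, filamin and titin are under mechanical load. Cryab and Hspb1 are found in many tissues, whereas Hspb2, Hspb3 and Hspb7 are known mainly from heart and skeletal muscle. Hspb2 and Hspb3 form a complex with each other, and Hspb8 and Bag3 form one that feeds damaged Z-disc proteins to autophagy. Mutations of Cryab, Hspb8 and Bag3 are known causes of inherited disease of muscle.

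The series set genome-wide DNA methylation beside expression in pluripotent cells, myoblasts, myotubes and adult muscle of the mouse, and the expression arrays are described here. There were 7 groups of 3 samples. The embryonic stem cells were the lines cGR8 (129Sv, male), RD1 (129X1/SvJ, male) and E14tg2 (129/Ola, sex not labelled), each line counted as 1 sample, with the 2 arrays of E14tg2 averaged. Primary myoblasts from male C57BL/6J mice were sampled at passage 0 and, as proliferating cultures, at passage 8 to 10, both in a medium with 20% serum and 5 ng/ml of the growth factor bFGF. Myotubes of the same strain and sex were made from confluent myoblasts on Matrigel in medium with 2% horse serum, for 1, 2 or 4 days. Quadriceps muscle came from male mice, replicate 1 from C57BL/6J and replicates 2 and 3 from 129Sv/C57BL/6J. Ages are not in the labels, and the labels name no mutation in any group. Strain therefore cannot be told apart from group in comparisons with stem cells, and partly in those with quadriceps. The labels do not say whether replicates came from separate mice, so every p-value measures the spread between these samples, which may be technical.

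Levels are the log2 of the processed probe signal minus the 75th percentile of all probes on the array, so a level of 0 is that percentile and a step of 1 is a doubling. A level belongs to its probe, so a member's level was compared between groups and never with another member's. Differences were tested with limma across all genes. A difference counts as called where its Benjamini-Hochberg adjusted p was under 0.05 and the fold 2 or more. How many of all genes had groups without overlap, or an unadjusted p under 0.05, was not counted. The array's 75th percentile of signal was 87.7 in proliferating myoblast replicate 1 and 208 to 765 on the other 22 arrays, and 39.1% to 60.1% of probes were well above background. The labelled cells carried their markers: all 7 stem cell markers were above background in all stem cell lines, and all 6 myoblast markers were above it in every myoblast, myotube and quadriceps sample. The lists were not exclusive, and all 7 myotube markers were above background in every myoblast sample. Of the myoblast markers 3 of 6 were above background in all stem cell lines and 2, Myod1 and Pax7, in none, and 3 or 4 of the 7 stem cell markers were above it in all samples of each muscle group. Quadriceps also held markers of other cells, with 7 of 7 endothelial, 7 of 7 smooth muscle and pericyte and 6 of 6 fibroblast markers above background in all 3 samples. Of the same lists, 5 of 7, 5 of 7 and 3 of 6 markers were above it in all stem cell lines. Des is in both the smooth muscle and the myoblast list, so presence above background is weak evidence of other cells. In a tissue such as quadriceps, fewer cells of a type and less RNA per cell cannot be told apart.

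Hspb1, the small heat shock protein best known for its induction by heat and its phosphorylation under stress, had high levels in every group. Its levels were 7.58, 8.49 and 8.26 in the stem cell lines, 7.25, 7.31 and 7.46 in passage 0 myoblasts and 8.29, 7.37 and 6.81 in proliferating myoblasts. They were 8.01, 8.73 and 7.83 on day 1, 8.50, 8.72 and 8.17 on day 2 and 8.53, 8.23 and 7.80 on day 4 of differentiation, and 8.37, 7.82 and 8.16 in quadriceps. The ranges of all groups except passage 0 myoblasts overlapped those of the stem cells, and the group means ran from 7.34 in passage 0 myoblasts to 8.46 on day 2. Of the 21 pairs of groups, 1 was called for Hspb1: day 2 myotubes were 2.17-fold above passage 0 myoblasts (log2 difference 1.12, adjusted p = 0.0361). These groups had its highest and lowest means. The pair is outside the 8 main comparisons, and its share of all genes called and its result under other processing are not given. Quadriceps and stem cells differed by 0.00 (95% interval -0.80 to 0.81). With quantile normalization the lowest group was the proliferating myoblasts in place of passage 0.

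The 250 bases before the RefSeq start of Hspb1 (GRCm38.p6, chr5:135887669-135887918, plus strand) are shown because they hold 2 copies of GAANNTTC, the core of a heat shock element, printed in capitals. They begin 117 and 97 bases before the start. Of 32851 promoter windows of this length, 6.69% hold this 8-base core, which reads the same on both strands.
Hspb1 promoter: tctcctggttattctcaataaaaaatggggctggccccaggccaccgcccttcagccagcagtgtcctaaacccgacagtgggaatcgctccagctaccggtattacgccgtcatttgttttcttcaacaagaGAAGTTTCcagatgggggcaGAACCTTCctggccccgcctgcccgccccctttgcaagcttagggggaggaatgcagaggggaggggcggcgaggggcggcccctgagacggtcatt

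Cryab encodes alphaB-crystallin, a lens protein that is also abundant in heart and slow muscle and that protects desmin filaments. Its levels were 0.96, 1.35 and 1.59 in the stem cell lines, 5.24, 5.91 and 6.33 in passage 0 myoblasts and 6.70, 6.69 and 4.98 in proliferating myoblasts. They were 7.49, 8.20 and 7.88 on day 1, 8.80, 8.81 and 7.87 on day 2, 8.19, 7.99 and 8.16 on day 4 and 9.19, 7.92 and 8.97 in quadriceps. The stem cells lay below every other sample, both myoblast groups overlapped each other, and all 12 samples of myotubes and quadriceps lay above all 6 myoblast samples. Between neighbours in the order of group means, the steps from stem cells to passage 0 (23.04-fold, adjusted p = 4.65e-07) and from proliferating myoblasts to day 1 (3.32-fold, adjusted p = 0.0254) were called. The steps among day 1, day 4, day 2 and quadriceps were not called.

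Cryab was measured by 2 probes. The probe used for the gene lies at chr9:50564566-50564625 on mm9, and the other at chr9:50561458-50561517, both on the plus strand. The second probe gave -1.63, -0.88 and -0.75 in stem cells, 2.67, 4.20 and 4.06 in passage 0 myoblasts, 5.74, 5.46 and 5.97 on day 4 and 6.74, 5.44 and 6.61 in quadriceps. Its difference from stem cells was 4.73 in passage 0 myoblasts and 7.35 in quadriceps, against 4.53 and 7.39 for the first probe, and both probes had the same call in 8 of 8 comparisons. The sequence of the second probe is given to show what was measured at that position.
Cryab second probe: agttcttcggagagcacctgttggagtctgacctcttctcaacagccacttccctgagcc

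Hspb8, the partner of Bag3 in chaperone-assisted autophagy, had levels of -0.15, 0.84 and 0.68 in the stem cell lines, 4.61, 5.08 and 5.03 in passage 0 myoblasts and 5.46, 3.99 and 2.76 in proliferating myoblasts. It stood at 5.64, 5.52 and 4.91 on day 1, 6.73, 6.24 and 5.74 on day 2, 6.62, 6.16 and 6.19 on day 4 and 5.74, 6.54 and 6.09 in quadriceps. Proliferating myoblasts spread over more than any other group and reached up into the day 1 range, while day 2, day 4 and quadriceps lay together. Among neighbours in the order only the step from stem cells to proliferating myoblasts was called (adjusted p = 1.98e-05), and the order of day 4, day 2 and quadriceps means (6.32, 6.24 and 6.13) was turned under quantile normalization, which put quadriceps highest.

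Hspb6, also called Hsp20, is known from heart, skeletal and smooth muscle, where it is phosphorylated by the cyclic nucleotide kinases. Its levels were -0.24, 0.48 and 0.81 in the stem cell lines, 2.63, 3.07 and 2.55 in passage 0 myoblasts and 3.75, 4.09 and 2.84 in proliferating myoblasts. On day 1 it stood at 2.92, 3.30 and 2.31 and on day 2 at 3.84, 2.73 and 3.27, within the range of the myoblasts or just below it. On day 4 it reached 6.57, 5.38 and 5.57, and in quadriceps 9.02, 8.04 and 8.74, with no overlap between these groups or with any earlier one. Of the steps between neighbours in its order 3 were called, from stem cells to passage 0 (5.28-fold, adjusted p = 0.000281), from proliferating myoblasts to day 4 (4.86-fold, adjusted p = 0.000931) and from day 4 to quadriceps (6.77-fold, adjusted p = 0.000103).

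Of the start sites listed for Hspb6 in RefSeq, the window of the second (GRCm38.p6, chr7:30553051-30553300, plus strand) is shown because it holds 1 GAANNTTC core, 120 bases before the start, and the TATA sequence TATAAA, 29 bases before it, both in capitals. TATAAA, searched on both strands, is present in 12.4% of promoter windows. The window of the other start held none of the searched motifs.
Hspb6 promoter, second start: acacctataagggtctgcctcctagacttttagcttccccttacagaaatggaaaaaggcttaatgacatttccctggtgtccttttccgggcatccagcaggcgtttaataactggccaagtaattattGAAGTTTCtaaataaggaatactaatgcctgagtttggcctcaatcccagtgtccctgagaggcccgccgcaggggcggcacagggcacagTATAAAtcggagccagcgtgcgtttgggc

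Hspb2 was found as a protein that binds myotonic dystrophy kinase, and its gene lies beside Cryab: their probes sit on opposite strands of chromosome 9, that of Hspb2 at chr9:50559211-50559270 (mm9, minus strand). Its levels were 1.55, 1.99 and 1.14 in the stem cell lines, 3.69, 5.23 and 5.04 in passage 0 myoblasts and 5.73, 4.91 and 3.02 in proliferating myoblasts. It stood at 6.71, 6.89 and 7.29 on day 1, 8.20, 8.26 and 7.73 on day 2, 7.70, 7.52 and 7.06 on day 4 and 6.40, 6.21 and 6.74 in quadriceps. Day 2 was above every sample of the other groups, and quadriceps lay below day 2 and day 4 with no overlap. Quadriceps was 3.06-fold below day 2, the group with the highest mean (log2 difference -1.61, adjusted p = 0.0217). That pair is outside the 8 main comparisons, and its share of all genes called and its result under other processing are not given. In the main comparison, against day 4, quadriceps was not called (-0.97, adjusted p = 0.176).

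Hspb3, the partner of Hspb2, was not well above background in any stem cell line, where its probe read -5.60, -6.95 and -6.15. It stood at 2.46, 3.40 and 3.08 in passage 0 myoblasts, 2.70, 1.58 and 0.69 in proliferating myoblasts, 4.62, 4.43 and 5.25 on day 1 and 6.32, 5.62 and 5.66 on day 2. It was 6.09, 5.41 and 5.19 on day 4 and 4.16, 4.42 and 4.57 in quadriceps. As with Hspb2, the highest mean was on day 2 and all quadriceps samples lay below all day 2 and day 4 samples, within the day 1 range or below it. Quadriceps was 2.80-fold below day 2 (log2 difference -1.48, adjusted p = 0.017). This pair too is outside the 8 main comparisons, without a share of all genes called or a result under other processing. Against day 4 quadriceps was not called (-1.18, adjusted p = 0.0623).

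The Hspb3 promoter window (GRCm38.p6, chr13:113663677-113663926, minus strand) is shown because it alone of the members' windows found held a MEF2 motif. No window was found for Cryab and Hspb2. The motif is the site of a muscle transcription factor family, and 2.92% of all windows hold it. The capitals mark a GAANNTTC core 224 bases before the start and the MEF2 motif, which begins 12 bases before it and contains a TATAAA.
Hspb3 promoter: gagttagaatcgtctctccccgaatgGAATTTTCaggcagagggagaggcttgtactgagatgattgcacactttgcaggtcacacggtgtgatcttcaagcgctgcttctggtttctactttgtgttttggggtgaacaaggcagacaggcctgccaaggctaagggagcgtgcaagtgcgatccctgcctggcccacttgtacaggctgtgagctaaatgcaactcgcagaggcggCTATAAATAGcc
Hspb3 probe, chr13:114453236-114453295 (mm9, minus strand): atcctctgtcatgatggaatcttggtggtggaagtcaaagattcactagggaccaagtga

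RefSeq windows were found for 6 of the 8 members, all but Cryab and Hspb2. The windows of Hspb8, Hspb7 and Bag3 held no match to the searched motifs, which were GAANNTTC and its inverted form TTCNNGAA, TATAAA, the CArG box, the MEF2 motif and the muscle E box, CAGCTG, on both strands. The shares of all windows that hold them were 6.69%, 7.17%, 12.4%, 1.47%, 2.92% and 13% in this order. These matches describe letters in a window and no binding was measured.

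Hspb7, known as the cardiovascular heat shock protein, binds filamin C at the Z disc. Like Hspb3 it was not well above background in stem cells, at -6.21, -6.55 and -6.30. It stood at -1.74, -0.07 and -1.47 in passage 0 myoblasts, 0.70, -1.20 and -3.24 in proliferating myoblasts and 0.53, 1.12 and 0.63 on day 1. It was 3.50, 3.31 and 2.30 on day 2, 3.96, 3.44 and 3.29 on day 4 and 5.14, 2.05 and 3.03 in quadriceps. Day 2 lay above day 1 with no overlap, and the quadriceps samples reached both above and below every sample of days 2 and 4. Day 4 was above day 1 (log2 difference 2.80, adjusted p = 0.0372).

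The quadriceps samples differed more for Hspb7 (SD 1.58, n = 3) than for any other member. Its probe is printed 10 times on the array, and the SD over the 9 or 10 usable spots was 0.031 to 0.049 in the quadriceps samples and at most 0.124 on the 19 arrays outside the stem cells. That spread is of repeat spots within one hybridisation and does not cover differences between samples, labelling or arrays. Replicate 1, the highest for Hspb7 and the only one of strain C57BL/6J, also had the highest median of the 6 slow-fibre markers. Those medians were 8.63, 5.66 and -1.29 in replicates 1, 2 and 3, while the medians of the 8 adult fibre markers were 9.90, 8.68 and 9.62. Replicate 3, with the lowest slow-fibre median, was not the lowest for Hspb7, and the part of fibre type in the Hspb7 spread was not tested.

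Bag3, which joins Hspb8 to Hsp70 and carries their clients to autophagy, had levels of 2.14, 2.16 and 2.19 in the stem cell lines, 4.97, 4.76 and 4.51 in passage 0 myoblasts and 4.56, 4.86 and 4.21 in proliferating myoblasts. It stood at 4.72, 5.38 and 5.13 on day 1, 5.28, 5.16 and 5.08 on day 2, 5.00, 4.62 and 4.95 on day 4 and 6.09, 5.49 and 5.73 in quadriceps. Stem cells lay far below, the cultured muscle cells lay in one band from 4.21 to 5.38, and every quadriceps sample lay above that band. Of the 21 pairs of groups 8 were called for Bag3, against 10 for Hspb8, 14 each for Cryab and Hspb7, and 15 each for Hspb2, Hspb3 and Hspb6. Pairs against stem cells all reuse the same lines, and the share of all genes called over the 21 pairs is not given. These counts therefore have no baseline and do not rank the members.

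**Figure D1:**
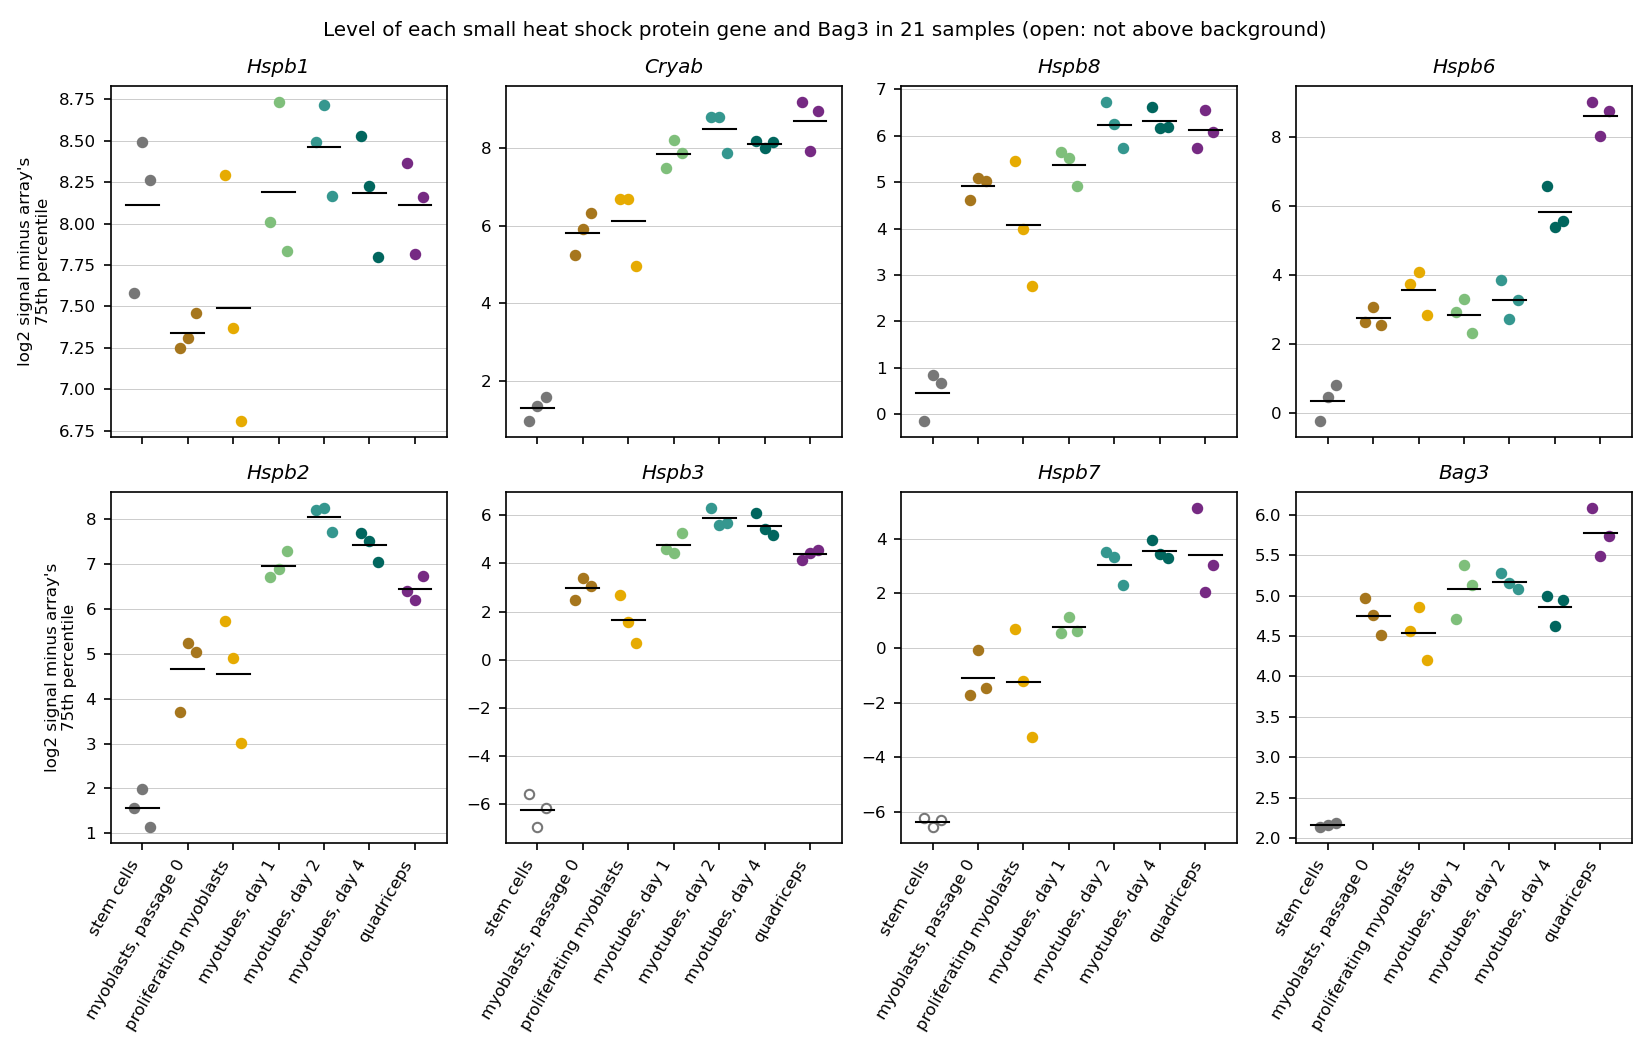
Level of each member in 21 samples, as log2 of the signal minus the array's 75th percentile, with a panel per gene, its own vertical scale, a point per sample, a bar at the mean of 3 samples and open points for samples not above background. Hspb1 stays between 6.81 and 8.73, and Hspb6 climbs on day 4 and again in quadriceps. Hspb2 and Hspb3 have their highest mean on day 2, without a call against day 1 or day 4.

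The first comparison asked which members were already higher in myoblasts than in pluripotent cells. Only Hspb3 and Hspb7 were not well above background in the stem cell lines. In passage 0 myoblasts 7 of 8 members rose against the stem cell lines and none fell, where 17.6% of the 22401 genes tested were called higher and 19.8% lower. The median difference of the members was 3.77, beside -0.26 over all genes tested, a median that quantile normalization moved to -0.08. Hspb3 was at least 195-fold higher (adjusted p = 1.12e-10) and Hspb7 at least 11.6-fold (adjusted p = 3.85e-05). These bounds set the myoblast mean against the higher of the probe's own stem cell signal and the lowest signal called above background on the array, and they hold for the processing used here. With normexp background correction the fitted log2 differences of Hspb3 and Hspb7 were 5.99 and 2.29, and with the authors' values 5.59 and 2.03, which are smaller folds than the bounds and were still called. Cryab was 23.04-fold higher (log2 difference 4.53 ± 0.47 SE), Hspb8 21.8-fold (4.45 ± 0.51, adjusted p = 1.56e-06), Hspb2 8.54-fold (3.09 ± 0.54, adjusted p = 0.000141) and Bag3 6.00-fold (2.58 ± 0.28, adjusted p = 8.03e-07). Hspb1 went the other way by less than its error allows to call, at -0.77 ± 0.38 (adjusted p = 0.124), although all 3 myoblast samples lay below all 3 lines. The 7 called members did not overlap between the groups, which alone makes their differences positive on each of the 3 slides. Passage 0 myoblasts also held 6 of 6 fibroblast and 6 of 6 leukocyte markers above background, with medians of 0.59 to 3.24 and -0.80 to 1.11. All 7 myotube markers were above it too, with medians of 6.82 to 7.75, as were all 6 slow-fibre markers, with medians of 3.49 to 5.64. The part of other cells or of early differentiation in these differences was not tested.

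Passage in culture was compared next. Between proliferating and passage 0 myoblasts no member was called, with 1 of 8 at an unadjusted p under 0.05 in limma, where 0.398% of 20350 genes were called higher and 0.771% lower. That member was Hspb3, which differed by -1.33 ± 0.47 (adjusted p = 0.193) with overlapping ranges. Hspb6 differed by 0.81 (adjusted p = 0.324) and Hspb8 by -0.84 (adjusted p = 0.366), and the other 5 by at most 0.30 either way. Hspb3 was called lower without proliferating myoblast replicate 1 (-1.85, adjusted p = 0.0374) and, with all samples, under normexp correction (-1.50, adjusted p = 0.0233), the authors' values (-1.33, adjusted p = 0.0487) and array weights, which count discordant arrays less (-1.57, adjusted p = 0.0114). Other members moved with single samples and had no call: without proliferating replicate 1 and without replicate 3 the differences were -1.13 and 0.85 for Hspb7, -0.69 and 0.67 for Hspb2, and -1.53 and -0.18 for Hspb8. Replicate 1, the array with the lowest signal, was the highest of its group for 6 of the 8 members, and replicate 3 the lowest for all 8. The median of the 7 myotube markers followed, at 6.98, 6.96 and 5.75 in replicates 1, 2 and 3, as did that of the 6 slow-fibre markers at 6.06, 5.24 and 3.72. Replicate 3 was also lowest for the myoblast list (5.87, 6.00 and 4.83) and the adult fibre list (1.16, 0.63 and -1.82). The smooth muscle list (4.84, 3.37 and 2.63) and the nerve list were lowest there too, so the pattern was not particular to differentiation markers. Replicate 2 was lowest for the stem cell, endothelial, fibroblast, leukocyte, adipocyte and red blood cell lists. Whether signal strength or early differentiation has a part in the members' spread was not tested.

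Differentiation was followed from the proliferating myoblasts. After 1 day, 3 of 8 members had risen and none had fallen, where 5.91% of 19126 genes were called higher and 3.25% lower. Hspb3 rose 8.64-fold (log2 difference 3.11 ± 0.47, adjusted p = 0.000474), Hspb2 5.32-fold (2.41 ± 0.54, adjusted p = 0.00797) and Cryab 3.32-fold (1.73 ± 0.47). Each was without overlap of the groups, which alone makes each positive on all 3 slides. Hspb7 differed by 2.01 (adjusted p = 0.137), Hspb8 by 1.29 (adjusted p = 0.134), Hspb1 by 0.70 and Bag3 by 0.53, all with overlap, and Hspb6 by -0.72 (adjusted p = 0.389). Without proliferating myoblast replicate 1 the count was 5, with Hspb7 (2.98, adjusted p = 0.015) and Hspb8 (1.98, adjusted p = 0.00634) added. Without its replicate 3 these differences were 1.01 (adjusted p = 0.392) and 0.63 (adjusted p = 0.388). Normexp correction called 4 members, with Hspb8 (1.46, adjusted p = 0.0216) added. Cryab was not called without proliferating replicate 3 (1.16, adjusted p = 0.103), day 1 replicate 2 (1.56, adjusted p = 0.0961) or day 1 replicate 3 (1.72, adjusted p = 0.0861), and Hspb2 ran from 1.64 without proliferating replicate 3 to 3.00 without replicate 1. A fit to these 2 groups alone called none of the members and 0 of all 19126 genes tested.

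From day 1 to day 2 no member was called, with 2 of 8 at an unadjusted p under 0.05, where 0.6% of 19015 genes were called higher and 2.17% lower. All 8 differences were positive, with a median of 0.76 beside 0.13 over all genes. Hspb7 (2.28 ± 0.80, adjusted p = 0.172), Hspb3 (1.10, adjusted p = 0.308), Hspb2 (1.10, adjusted p = 0.403) and Hspb8 (0.88, adjusted p = 0.532) did not overlap between the days. The shares of all genes without overlap, at that unadjusted p or with a positive difference were not counted, so these counts have no baseline. With limma's array weights Hspb7 (adjusted p = 0.00316), Hspb2 and Hspb3 were called, where the calls over all genes also increased, to 11.5% in both directions together.

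Between day 2 and day 4 a single member rose, where 0.248% of 17749 genes were called higher and 0.062% lower. Hspb6 was 5.89-fold higher on day 4 (log2 difference 2.56 ± 0.45, adjusted p = 0.0151), by 1.72 to 3.84 on the 3 slides. Its call was lost without day 4 replicate 1 (2.19, adjusted p = 0.12), day 2 replicate 2 (2.28, adjusted p = 0.0813) or day 2 replicate 3 (2.55, adjusted p = 0.0678), and with the 2 groups fitted alone (adjusted p = 0.27), while the difference stayed near the same size. The other 7 members had no call: Hspb2 differed by -0.64 (adjusted p = 0.914) and Bag3 by -0.32 (adjusted p = 0.936), both without overlap.

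Over the whole of differentiation, day 4 against proliferating myoblasts, 6 of 8 members rose and none fell, where 14.4% of 17428 genes were called higher and 10.2% lower. The median difference of the members was 2.27, beside 0.03 over all genes. Hspb7 rose 28.1-fold (log2 difference 4.81 ± 0.80, adjusted p = 0.000239) and Hspb3 15.02-fold (3.91 ± 0.47, adjusted p = 1.41e-05). Hspb2 rose 7.31-fold (2.87 ± 0.54), Hspb6 4.86-fold (2.28 ± 0.45), Hspb8 4.76-fold (2.25 ± 0.51, adjusted p = 0.00294) and Cryab 3.98-fold (1.99 ± 0.47, adjusted p = 0.00388). These 6 did not overlap between the groups, which alone makes each of them positive on all 3 slides. Hspb1 (0.70, 95% interval -0.11 to 1.501, adjusted p = 0.207) and Bag3 (0.31, 95% interval -0.28 to 0.90, adjusted p = 0.478) were not called.

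The size of these rises depended on the proliferating group. Without its replicate 1 the difference of Hspb7 was 5.79, that of Hspb2 3.46 and that of Hspb8 2.95, and Hspb1 was called as well (1.10, adjusted p = 0.0303). Without its replicate 3 they were 3.81, 2.10 and 1.59, still called. A fit to these 2 groups alone called only Hspb3 and Hspb7, and 5.36% of all genes tested.

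**Figure D2:**
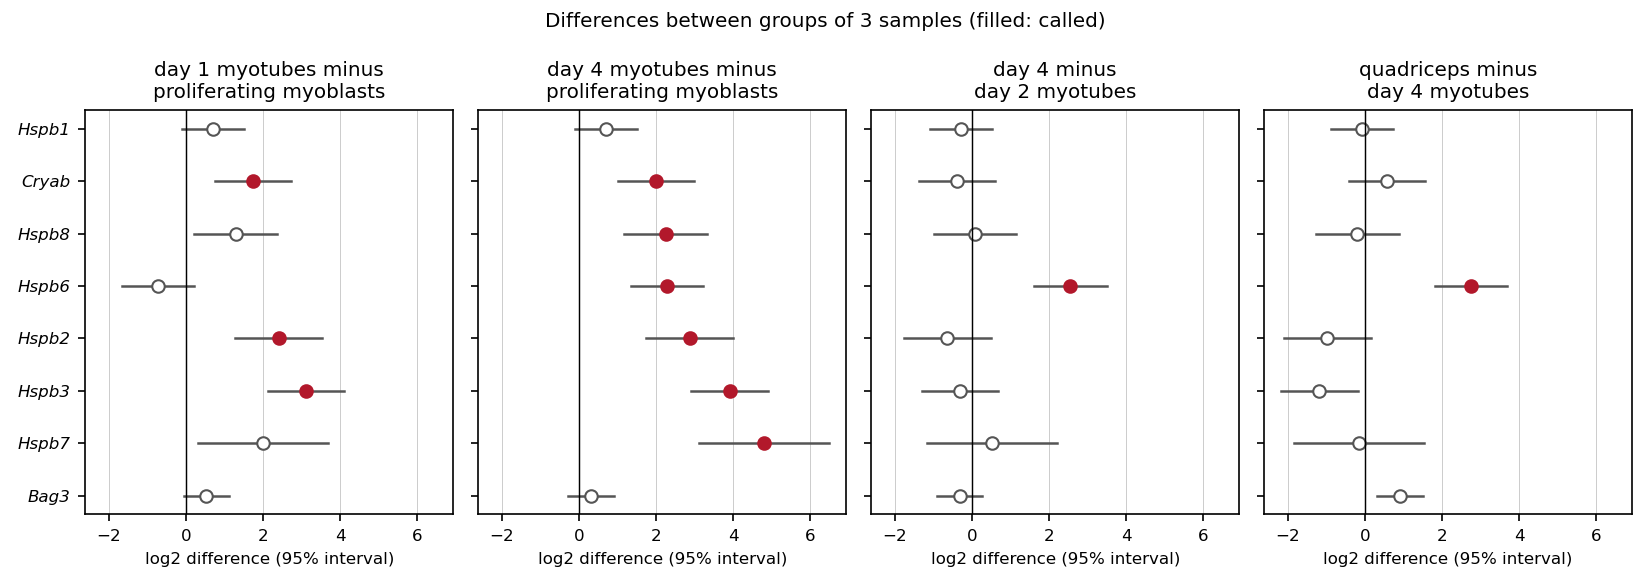
Log2 differences of the 8 members in 4 comparisons, with points at the estimate, bars for the 95% interval of limma's fit to 3 samples a group and filled points for called differences. Hspb6 is the only filled point between days 2 and 4 (2.56) and between quadriceps and day 4 (2.76), while 6 members are filled between day 4 and proliferating myoblasts.

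Adult muscle was compared with the most mature cultures. In quadriceps against day 4 myotubes 1 of 8 members rose and none fell, where 14.7% of 18550 genes were called higher and 16.4% lower. The median difference of the members was -0.11, beside -0.06 over all genes. Hspb6 rose 6.77-fold (log2 difference 2.76 ± 0.45), by 1.47 to 3.63 on the 3 slides. Bag3 differed by 0.91 ± 0.28 (adjusted p = 0.0169) without overlap but stayed under the 2-fold limit at 1.88-fold, passing it without quadriceps replicate 2 (1.06, adjusted p = 0.0196) and missing the p threshold without replicate 1 (0.75, adjusted p = 0.0801). Hspb3 (-1.18 ± 0.47, adjusted p = 0.0623) and Hspb2 (-0.97 ± 0.54, adjusted p = 0.176) lay lower in quadriceps without overlap, and neither was called. Their lower values on all 3 slides follow from that lack of overlap. With the authors' normalized values Hspb3 was called lower (-1.04, adjusted p = 0.0268) and Bag3 higher. Cryab (0.58, adjusted p = 0.376), Hspb1 (-0.07), Hspb8 (-0.20) and Hspb7 (-0.16, between -1.02 without quadriceps replicate 1 and 0.52 without replicate 2) overlapped between the groups.

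Cells other than fibres differ between the dishes and the tissue. Of the 7 smooth muscle and pericyte markers, Myh11, Cnn1 and Rgs5 were not above background on day 4, and all 7 were above it in quadriceps. The medians of that list were 3.06 to 4.93 on day 4 and 3.25 to 4.54 in quadriceps. Endothelial markers had medians of -5.09 to -4.11 on day 4 and 0.25 to 2.06 in quadriceps, and fibroblast markers -2.38 to -1.76 and 3.94 to 6.13. The part of these cells in the level of Hspb6, Hspb1 or any other member in quadriceps was not tested.

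Against the stem cell lines, quadriceps was called higher for the same 7 members as passage 0 myoblasts and lower for none, where 25.4% of 21846 genes were called higher and 29.5% lower. These comparisons share the stem cell samples. Hspb6 was 304-fold higher (log2 difference 8.25, adjusted p = 8.21e-11), Cryab 168-fold (7.39, adjusted p = 5.63e-10), Hspb8 50.8-fold (5.67), Hspb2 29.7-fold (4.89) and Bag3 12.2-fold (3.61, adjusted p = 6.84e-09). Hspb3 was at least 517-fold and Hspb7 at least 263-fold higher, again for this processing: the fitted log2 differences were 7.22 and 6.35 with normexp correction and 6.91 and 6.08 with the authors' values, smaller folds that were still called. Hspb7 ran from 8.89 without quadriceps replicate 1 to 10.44 without replicate 2, around 9.76 with all samples.

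Because members work in pairs, the change of one relative to another was followed on each array as the difference of their log2 levels. The zero of such a difference has no meaning across probes, but its change between groups does. Over 5 pairs and 2 comparisons, 10 tests, an exact two-sided permutation test of 3 against 3 samples can give no p below 0.1, so none could pass 0.05, and the smallest adjusted p was 0.167. The neighbouring genes Hspb2 and Cryab both rose with differentiation, and their difference changed by 0.88 with overlap (exact p = 0.2). From day 4 to quadriceps the difference of Hspb2 and Cryab changed by -1.55 without overlap (from -0.69 ± 0.36 to -2.24 ± 0.54, SD, n = 3, exact p = 0.1).

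The partners of the known complexes were followed in the same way. Hspb3 and Hspb2 changed by -0.21 relative to each other from day 4 to quadriceps, with overlap (exact p = 0.4), after Hspb3 had gained 1.04 on Hspb2 during differentiation (exact p = 0.1). Hspb8 gained 1.94 on Bag3 from proliferating myoblasts to day 4, and their difference changed by -1.11 from there to quadriceps, both without overlap (exact p = 0.1 each). Hspb6 gained 2.18 on Cryab and 3.73 on Hspb2 from day 4 to quadriceps without overlap (exact p = 0.1 each), and changed by 0.29 and -0.59 against them during differentiation with overlap (exact p = 0.6 and 0.4).

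**Figure D3:**
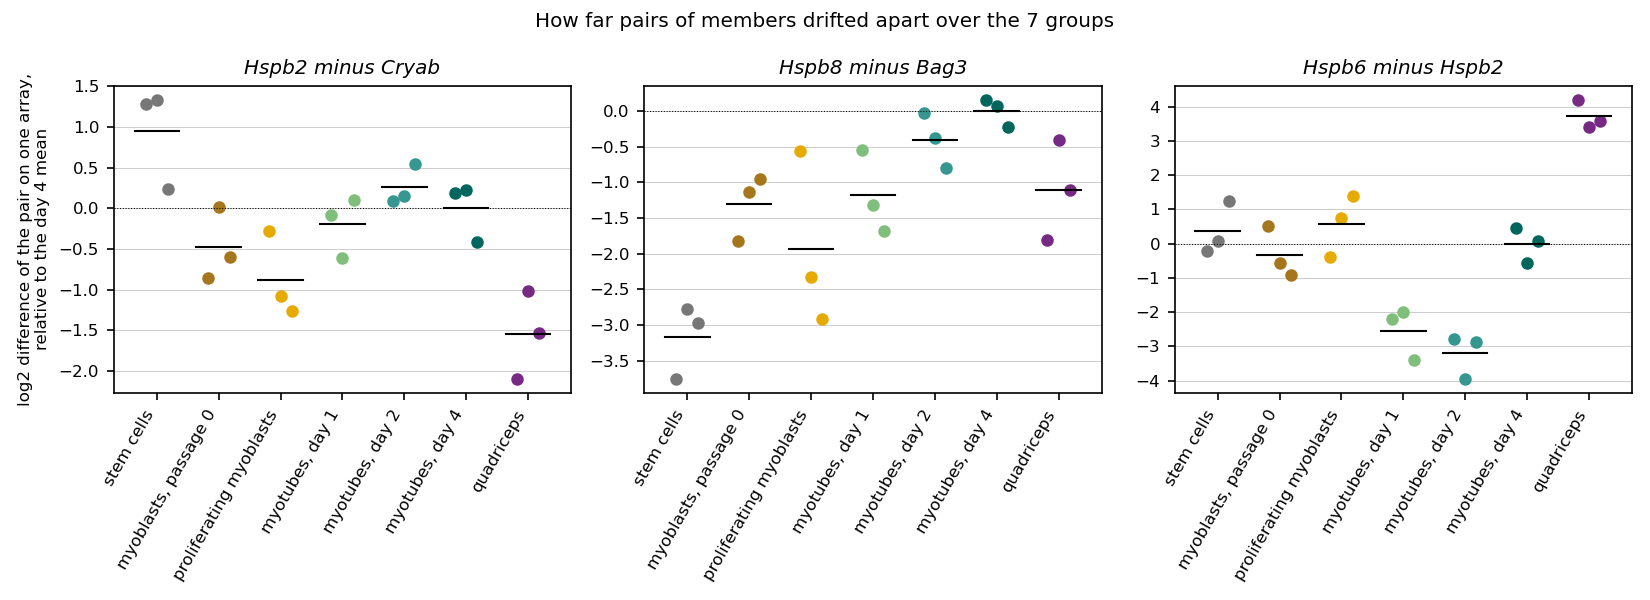
Difference of the log2 levels of 2 members on the same array, shifted so that the day 4 mean is 0, with a point per sample, a bar at the mean of 3 samples and a panel per pair with its own scale. The quadriceps mean is at -1.55 for Hspb2 minus Cryab, at -1.11 for Hspb8 minus Bag3 and at 3.73 for Hspb6 minus Hspb2.

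Across the 7 group means, which share libraries and include the stem cells as one far point, Hspb8 and Hspb3 were the most alike of the 28 pairs of members (Pearson r = 0.99). Hspb1 followed no other member closely (r 0.07 to 0.46), and Hspb6 had r of 0.58 to 0.79 with the 6 others. The genes most like each member were taken from 15898 genes by Pearson r of the 7 means. For Hspb8 they were Klhl41 (0.996), a kelch protein of the sarcomere, Mustn1 and Tbx15, and for Hspb3 Lmod3 (0.998), which nucleates thin filaments, Map7d1 and Srr. For Hspb6 they included Dbndd2 (0.993) and Kif1c, and for Hspb2 they were Vps37c (0.999), Klhl18 and Dtna, which codes for dystrobrevin. Cryab was nearest to Acad9, Sirt2 and Slco3a1, Hspb7 to BC004004, Dexi and Uros, and Bag3 to Akr1e1, Cacfd1 and Zbtb20. Hspb1 was nearest to Mmab (0.986), Rnf34 and Vmn1r195. The group means of Vmn1r195 ran only from -3.66 to -2.78. The lowest level called above background on proliferating myoblast replicate 1 was -1.87, so that likeness rests on faint signal.

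Other genes of the chaperone system were taken from fixed lists and compared on day 4 and in quadriceps. Their counts stand beside the shares of all genes tested, 14.4% higher and 10.2% lower by day 4 against proliferating myoblasts, and 14.7% and 16.4% in quadriceps against day 4. Of 14 tested genes listed as partners of Bag3 and Hspb8 in assisted autophagy (Hsp70 proteins, J-domain proteins, autophagy adaptors), 4 rose and none fell by day 4, with a list median of 0.79. They were led by Hspa1l (2.13, adjusted p = 0.00854), an Hsp70 protein, and Dnajb5 (1.90, adjusted p = 0.000176), a J-domain protein. Dnajb6 (1.67, adjusted p = 0.00014) and Dnajb2 (1.37, adjusted p = 0.00555) were the others that rose. The rest of the list, Hspa8, Stub1 and Sqstm1 among them, had no call. In quadriceps against day 4 the 2 that rose were again Hspa1l (3.01, adjusted p = 0.000401) and Dnajb5 (1.87, adjusted p = 0.000117). Of the 5 other Bag genes, most of whose products bind Hsp70, Bag1 (1.62, adjusted p = 0.00985) and Bag2 (1.28, adjusted p = 0.0397) rose by day 4. Bag4 differed by -0.89, Bag5 by 0.30 and Bag6 by 0.32 without a call. In quadriceps Bag1 fell by 1.28 (adjusted p = 0.0308), a call lost without day 4 replicate 1 (-0.92, adjusted p = 0.161) or 2 or quadriceps replicate 1 or 2, and Bag2 (-0.98), Bag4 (-0.92), Bag5 (-0.13) and Bag6 (-0.26) had no call. Hspa1l and Bag1 were not called in the day 4 comparison without proliferating myoblast replicate 3 (adjusted p = 0.0519 and 0.0584) or without day 4 replicate 1 (adjusted p = 0.0519 and 0.0655). Bag2 lost its call on day 4 without proliferating replicate 1 or 3 or day 4 replicate 1 or 2 (adjusted p = 0.119, 0.0877, 0.174 and 0.0549), with the replicate block (adjusted p = 0.0514) and with array weights (0.56, adjusted p = 0.252). Hspa1l was not called there with normexp correction (1.08, adjusted p = 0.0653).

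Heat shock factors, which drive the heat shock genes under stress, were not called in either comparison by limma, and none of the 3 tested had an unadjusted p under 0.05. Hsf1 differed by 0.14 and Hsf2 by 0.30 on day 4, Hsf4 by 0.82 (adjusted p = 0.173), and by -0.16, -0.13 and 0.03 in quadriceps. Without proliferating myoblast replicate 1, Hsf4 was called higher on day 4, and a factor not tested with all samples was called lower. With all samples, Hsf3 and Hsf5 were not above background in enough samples to be tested. A list of other small heat shock proteins held 4 genes, which were not checked for the alpha-crystallin domain. Of these, Cryaa and Odf1 were not tested for the same reason. Hspb9 differed by 0.12 and Hspb11 by 0.24 on day 4, and in quadriceps Hspb9 by -0.51 while Hspb11 fell by 1.27 (adjusted p = 0.0174). That call was lost without day 4 replicate 1 or 2 or quadriceps replicate 1 (adjusted p = 0.117, 0.0609 and 0.0751).

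Of 19 cytosolic chaperones 3 rose and 2 fell by day 4, near the shares over all genes, with a list median of -0.19. Dnaja4 was higher by 2.69 (adjusted p = 0.000115) and Hspa2 by 1.48 (adjusted p = 0.0157), and Hsp90aa1, the inducible Hsp90, fell by 1.33 (adjusted p = 0.00796). Without day 4 replicate 1 neither Hspa2 (1.28, adjusted p = 0.0733) nor Hsp90aa1 (-0.92, adjusted p = 0.0581) was called, and Hspa2 was not called without proliferating replicate 3 (adjusted p = 0.0576). In quadriceps 1 of 19 rose, the steroid receptor co-chaperone Fkbp5 (2.44, adjusted p = 1.02e-05), and 3 fell, led by Hspa4l (-1.76, adjusted p = 0.00387). Of 14 mitochondrial and endoplasmic reticulum chaperones none rose and 1 fell by day 4, the disulfide isomerase Pdia4 (-1.45, adjusted p = 0.00515), and 3 fell in quadriceps, led by Pdia3 (-1.39) and Dnajb11 (-1.21). Quantile normalization called 1 higher and 4 lower in the first of these comparisons.

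Among 7 chaperones of muscle myosin and the sarcomere 4 rose and 2 fell by day 4, with a list median of 1.67. Unc45b, the muscle chaperone of the myosin head, rose by 4.18 (adjusted p = 1.34e-05) and Fhod3, a formin that builds actin filaments in the sarcomere, by 2.96 (adjusted p = 3.13e-05). Unc45a, the Unc45 gene of non-muscle cells, fell by 1.22. That call was lost without day 4 replicate 2 (-0.98, under the 2-fold limit). In quadriceps 1 rose, the methyltransferase Smyd2 (2.75, adjusted p = 2.75e-06), and 1 fell, Unc45a again, by 1.00 (adjusted p = 0.0167). At 2.00-fold Unc45a was at the limit, and its call was lost under 8 alternatives, quantile normalization (-0.84) and the authors' values (-0.83) among them.

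Filament and Z-disc genes were listed as possible clients of these chaperones, and no binding to a client was measured. By day 4, 10 of 14 rose and 2 fell, with a list median of 3.11, led by Myot (5.98, adjusted p = 3.63e-05), a Z-disc protein, and Tcap (4.92, adjusted p = 6.36e-05), which caps titin. Vim and Flna, the vimentin and filamin of undifferentiated cells, were the 2 that fell. In quadriceps 4 of the 14 rose, 3 fell, and the list median was 0.10. Synm, an intermediate filament protein that joins desmin, rose 134-fold (7.07, adjusted p = 2.47e-08) and Myot by 3.26 (adjusted p = 0.00413), while Vim, Lmna and Flna fell. The fall of Flna (-1.17, adjusted p = 0.049) lost its call under 13 of 17 alternatives, and was -0.58 (adjusted p = 0.27) without day 4 replicate 3.

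Genes of acute stress and tissue handling were measured beside them. Of 14 tested, 2 rose and 2 fell by day 4, shares near those over all genes, led by Atf3 (2.56, adjusted p = 0.0306) and Egr1 (1.83, adjusted p = 0.0159). Atf3 lost its call without proliferating replicate 2 or 3 or day 4 replicate 2 or 3 (adjusted p = 0.0617 to 0.108), and Egr1 without day 4 replicate 1 (1.59, adjusted p = 0.0736) and with array weights (0.87, adjusted p = 0.121). The 4 calls fell to 1 without proliferating replicate 2, day 4 replicate 1 or day 4 replicate 2, and to 2 without day 4 replicate 3. In quadriceps none rose and 4 fell, led by Egr1 (-4.74, adjusted p = 2.17e-06) and Junb (-3.02, adjusted p = 0.0002). Hspa1a, an inducible Hsp70 gene of this list, differed by 1.39 on day 4 (adjusted p = 0.128) and by 0.98 in quadriceps (adjusted p = 0.269). The part of handling in the members' levels was not tested.

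**Figure D4:**
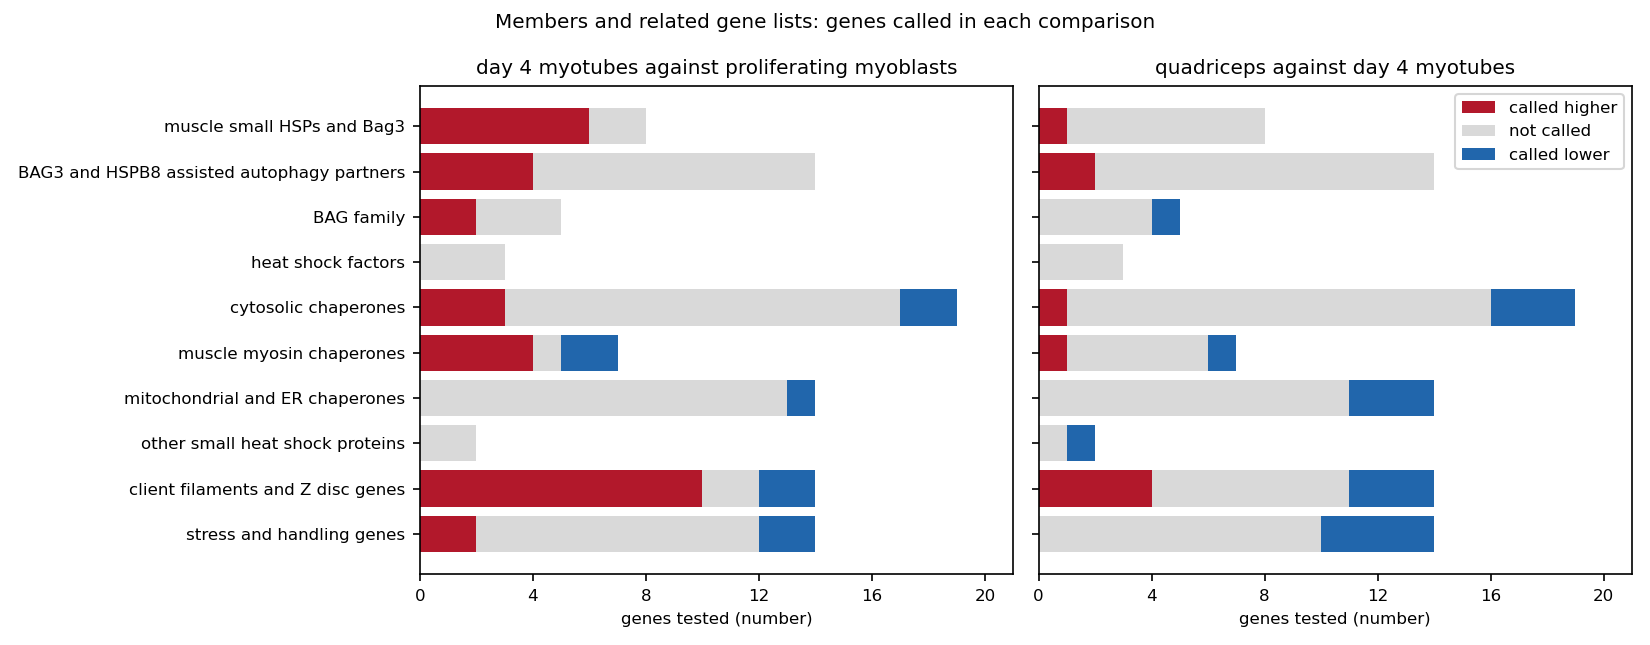
Number of tested genes called higher, not called and called lower among the members and 9 related gene lists, in day 4 myotubes against proliferating myoblasts and in quadriceps against day 4 myotubes. The members (6 of 8) and the filament and Z-disc genes listed as possible clients (10 of 14) have the longest bars called higher in the first panel relative to their size. In the second panel 1 member is called higher.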

How the data were processed

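Total RNA of 23 samples was labelled with Cy3 and hybridised to one-colour Agilent mouse arrays, whose probe positions are on mm9 per the file headers. Per the file headers, Feature Extraction 10.7.3.1 computed each spot's processed intensity, with background subtracted and trends across the array removed. The authors also deposited a matrix of log2 values, used as an alternative and for nothing else.

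The log2 of the processed intensity was taken, the array's 75th percentile over 59305 spots that are not controls was subtracted, outlier spots were left out and spots of a probe averaged. A gene was its brightest probe. limma 3.58.1 (R 4.3.3) fitted 7 group means to 21 samples with 14 residual degrees of freedom. A gene entered a test where all samples of either group were well above background. Changes of the difference of 2 members used exact permutation tests. The number of arrays limits the precision. Alternatives were normexp correction, quantile normalization, the authors' values, other filters, the mean of probes, slide or replicate number as a block, array weights, fits to 2 groups and each replicate left out.

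Named genes were all members, the 2 called genes of each list with the largest fold in 2 comparisons, all genes of lists of up to 5, and the 3 genes most like each member, of which 1 is not reported here. Genes named outside this rule were chosen after their values were seen: Hspa1a, Vim, Flna and Lmna, and Unc45a, Hsp90aa1, Dnajb6, Dnajb2, Hspa8, Stub1 and Sqstm1 by day 4. The members, lists and pairs were chosen with earlier results of these data known. Promoters came from RefSeq (GRCm38.p6). The NOD/ShiLtj muscle array entered only an alternative.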

Additional observations from a re-analysis of the deposited data

How the results depend on the processing

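Over 1052 recomputed differences of single members none turned a called direction, 1016 kept their side of the threshold, 22 passed it and 14 lost it. Of the counts of members called, those of passage 0 myoblasts and of quadriceps against stem cells stayed at 7 in every alternative, each replicate left out included, except the filter on both groups, which gave 5 because Hspb3 and Hspb7 could not enter the test. Normexp background correction called 1 member in proliferating against passage 0 myoblasts and 2 in quadriceps against day 4, and 4 on day 1 against proliferating myoblasts, quantile normalization 2 in quadriceps against day 4, and the authors' values 1 and 3. Array weights called 1 and 3 in the same comparisons, 5 on day 1 against proliferating myoblasts and 3 on day 2 against day 1, where they called 5.38%, 37%, 13.6% and 11.5% of all genes. With only the 2 groups fitted the counts were 0 on day 1 against proliferating myoblasts, 1 on day 2 against day 1, 0 on day 4 against day 2 and 2 on day 4 against proliferating myoblasts, with fewer samples to estimate the spread and 0%, 1.31%, 0% and 5.36% of all genes called. Adding the NOD muscle array gave 2 in quadriceps against day 4. Leaving out one replicate gave 0 to 1 members in proliferating against passage 0 myoblasts, 2 to 5 on day 1 against proliferating myoblasts, 0 to 1 on day 4 against day 2, 6 to 7 on day 4 against proliferating myoblasts and 1 to 2 in quadriceps against day 4, and 0 throughout on day 2 against day 1. Where no construction of the alternative shows it, the cause was not tested.

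The replicate block gave the main counts in all 8 comparisons (7, 0, 3, 0, 1, 6, 1 and 7). It follows the bare replicate number over all 7 groups, and culture 26 is replicate 1 at passage 0 and replicate 2 later. In comparisons with stem cells, passage 0 or quadriceps it ties samples not labelled as related. Equal counts there do not bear on shared origin. The slide as a block moved no count. After removal of group means, 18 pairs of samples that share a culture number correlated at r of -0.313 to 0.746 across 12914 genes, 9 of them over 0.1. In no main comparison of these cultures were all 3 pairs over 0.1, so the numbers were not taken as pairs there. Between day 1 and day 4 myotubes all 3 were (0.195, 0.514 and 0.746), and a replicate block, chosen after seeing the data, changed no member's call: 2 were called with and without it, Hspb6 (adjusted p = 0.000629, with the block 0.00101) and Hspb7 (adjusted p = 0.0372, with the block 0.026). Over all genes 8.32% were called without the block and 8.62% with it.

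The median difference over all genes was -0.26 in passage 0 myoblasts against stem cells as analysed, -0.08 with quantile normalization and -0.06 with the authors' values, and 0.14, -0.05 and -0.04 in proliferating against passage 0 myoblasts. The medians of cytosolic chaperones and of mitochondrial and endoplasmic reticulum chaperones in quadriceps against day 4, both near 0, changed sign with quantile normalization (0.05 and 0.08) and with the authors' values (0.01 and 0.04). Precision is limited by 3 samples a group, by the proliferating myoblast array with a 75th percentile of 87.7, and, for Hspb3 and Hspb7 in stem cells, by signals not well above background.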

Other observations

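A single skeletal muscle sample of a NOD/ShiLtj mouse belongs to none of the 7 groups and has no replicate. Its level of Hspb1 was 7.46, below all 3 quadriceps samples, the lowest of which was 7.82. Hspb8 at 5.32 and Bag3 at 5.08 also lay below all 3, the lowest of which were 5.74 and 5.49. Cryab at 8.13, Hspb6 at 8.26, Hspb2 at 6.24, Hspb3 at 4.47 and Hspb7 at 3.34 lay within the quadriceps range. The muscle is not named in its label, and the strain differs, so muscle, strain and array cannot be told apart here.

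The repeat arrays of stem cell line E14tg2 differed by 0.09 for Bag3 to 0.51 for Hspb6 among the 6 members above background. For Hspb3 and Hspb7, below background in that line, they differed by 1.12 and 0.78.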
